A study of Oryzias latipes with 3 samples.

Results

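Broad acetylated H3K4me3 peaks are stretches of the medaka (Oryzias latipes) genome where a called peak of trimethylated lysine 4 on histone H3 spans 2000 bp or more and shares at least 1 bp with a peak of acetylated lysine 27. Of the 12884 H3K4me3 peaks, 794 met both conditions, which is 6.16% of the list (Wilson 95% interval 5.76 to 6.59). Another 40 H3K4me3 peaks were as wide but shared no base with H3K27ac, and 10271 were acetylated but under 2000 bp; these last are called narrower acetylated peaks. The 794 peaks were thus chosen by measured width and overlap, so their width, their score and the fact of their acetylation are given as a description.

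The peaks come from chromatin immunoprecipitation and sequencing of whole embryos at stage 24, raised at 26 °C, with chromatin of 600 embryos pooled into each sample. The series holds 2 samples precipitated for H3K27ac with an antibody from Abcam and 1 sample precipitated for H3K4me3 with an antibody from Diagenode. A peak list of 1 sample of each mark was used, and the other H3K27ac sample was not analysed here. No source used here names the strain. Every tissue of the embryo contributed chromatin, so a shared base does not place both marks in the same cell.

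H3K4me3 is laid down around the start sites of active and poised genes by methyltransferase complexes of the COMPASS family. H3K27ac is written by acetyltransferases of the CBP family, at active promoters and at enhancers. In mammalian cells most H3K4me3 peaks are short, and the widest tend to lie over genes of cell identity and development. Acetylated sites without H3K4me3 are the usual candidates for enhancers. Gene starts and sequence in the coordinates of these lists were not used here, so the 794 peaks are named by position, and whether each is a promoter was not tested.

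Each mark is represented by 1 list, read depth is unknown, and peaks of a list are not replicates. No p-value was therefore computed. Intervals are 95% intervals of counting error (Wilson for shares, exact Poisson for mean numbers, exact binomial order statistics for medians), and differences of shares carry intervals combined from these.

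Most broad acetylated peaks were only moderately broad. Their median width was 2298 bp (2269 to 2327), the middle 50% ran from 2124 to 2614 bp, and the widest measured 6599 bp. Peaks of 2000 to under 2500 bp numbered 548, those of 2500 to under 3000 bp 155, those of 3000 to under 4000 bp 80, and those of 4000 bp or more 11. The 794 peaks summed to 1952 kb, or 12.5% of all H3K4me3-marked bases. No gap in the widths marked the threshold: 163 acetylated peaks measured 2000 to under 2100 bp, and 219 measured 1900 to under 2000 bp. The 5 peaks just inside it were 2001 to 2003 bp wide, scored 650 to 2461 and were covered by H3K27ac for 71.2% to 92.6%. The 5 just outside were 1996 to 1999 bp wide, scored 599 to 3100 and were covered for 84.3% to 97.9%.

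Of all H3K4me3 peaks, 85.9% shared a base with H3K27ac. Among the 834 peaks of 2000 bp or more, 6.47% of the list, the share was 95.2% (93.5 to 96.5), against 85.2% (84.6 to 85.9) of the 12050 below that width. The rise with width lay below the threshold. The share was 71.6% under 1000 bp, 92.4% at 1000 to under 1500 bp and 96.5% (95.6 to 97.2) at 1500 to under 2000 bp. From there to under 4000 bp the intervals overlapped, with 95.8% (93.8 to 97.2) at 2000 to under 2500 bp and 95.2% (88.4 to 98.1) at 3000 to under 4000 bp. Of the 14 widest, from 4000 bp, 11 were acetylated, or 78.6% (52.4 to 92.4). That interval lies below the one at 2000 to under 2500 bp and overlaps the one at 3000 to under 4000 bp.

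The authors' H3K4me3 score has no stated unit or meaning. Its median was 1980 (1882 to 2081) over broad acetylated peaks and 1218 (1186 to 1257) over narrower acetylated ones. Scores reached 3233, but the single value of 3100 recurred and was held by 127 broad acetylated peaks, or 16.0%, against 6.85% of the whole list. At the other end, 160 broad acetylated peaks (20.2%, 17.5 to 23.1) scored below 1014, the median of the list. The 40 broad peaks without H3K27ac had a median of 308 (220 to 447). Within the broad acetylated peaks, width and score hardly moved together (Spearman rho -0.09 over 794 peaks of 1 list). Among the 11 from 4000 bp upwards, however, the median score was 526.

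**Figure D1:**
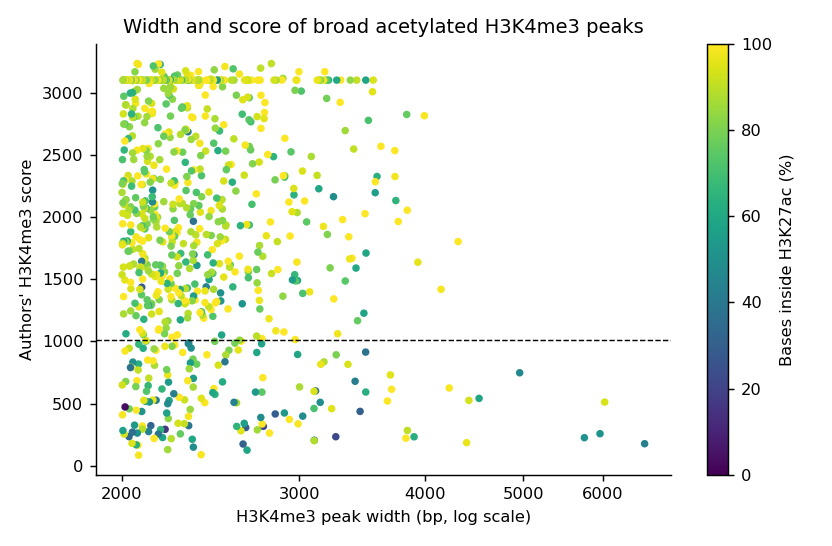
Width in bp (log axis) and the authors' H3K4me3 score of the 794 broad acetylated peaks, coloured by the percentage of their bases inside H3K27ac. The dashed line is the median score of all H3K4me3 peaks, 1014. Points line up at the repeated score of 3100, and most of the widest peaks lie below the line.

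Acetylation filled most of a broad H3K4me3 peak, and its median coverage was close to that of narrower ones. H3K27ac covered a median of 88.1% of the bases of broad acetylated peaks (87.0 to 89.5), against 87.3% (87.0 to 87.7) for narrower acetylated peaks. The difference of 0.83 percentage points had an interval of -0.42 to 2.25, which includes 0. Its sign depended on the setting. With a threshold of 1500 bp it was 0.99 (0.26 to 1.68) and with at least 50% coverage required 1.29 (0.22 to 2.81). The latter setting removes peaks by their coverage, 5.29% of broad and 2.06% of narrower acetylated ones. It therefore raises the difference by its choice and cannot show its sign. It averaged -0.69 within score quintiles and -2.33 within 1 Mb bins. The value within bins averages medians of 793 broad acetylated peaks spread over 439 bins. With so few per bin, it is not the same measure as the difference of overall medians. Full coverage was found at 121 broad acetylated peaks, or 15.2% (12.9 to 17.9), against 14.7% (14.0 to 15.4) of narrower acetylated peaks. Coverage by the summed bases was 83.4% over broad and 84.3% over narrower acetylated peaks. The acetylated region was correspondingly wide. The widest H3K27ac peak on a broad acetylated peak had a median of 2104 bp (2061 to 2138), against 1065 bp (1055 to 1078) on narrower ones.

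A thinly acetylated minority stood at the low end. Of the broad acetylated peaks, 42 (5.29%, 3.94 to 7.07) were covered for less than 50%, against 212 narrower acetylated peaks (2.06%, 1.81 to 2.36). Acetylated peaks of any width covered for less than 50% made up 1.97% of the whole H3K4me3 list. Peaks without H3K27ac are not counted as thinly covered in that share. An H3K27ac peak of a given length covers a smaller share of a wider H3K4me3 peak, so the contrast with narrower peaks is partly set by the rule. Median coverage of broad peaks was lowest in quintile 2 of H3K4me3 score, counted from the lowest score. There it was 64.9% (58.0 to 85.7) over 86 broad acetylated peaks and 86.6% (85.3 to 87.5) over 2060 narrower acetylated peaks, intervals that just overlap. In quintiles 3, 4 and 5 it was 88.1%, 87.6% and 90.4% over broad acetylated peaks, against 86.3%, 86.1% and 88.0% over narrower ones, and all 3 pairs of intervals overlapped. Quintile 1 held only 11 broad acetylated peaks.

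The least covered peak, 2015 bp at chromosome 7, 14299439 to 14301453, shared 69 bp with a 527 bp H3K27ac peak at its end, so that it met the rule by 3.42% of its bases. The next were covered for 15.9% at chromosome 8, 4158342 to 4160549, for 20.6% at chromosome 16, 2217273 to 2220035, and for 22.2% at chromosome 9, 14619746 to 14623005. In each of these 4 the acetylated peak was short, 527 to 1219 bp, and scored 68.3 to 140. The remaining one was unlike them: at chromosome 16, 17744648 to 17746740, a 3626 bp acetylated peak covered 27.8% of the H3K4me3 peak and ran on for 3045 bp beyond its edge. Of the 5, 4 scored below the median of the H3K4me3 list.

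H3K4me3 reached past acetylation at both ends in 330 broad acetylated peaks, or 41.6% (38.2 to 45.02), against 36.7% (35.7 to 37.6) of narrower acetylated peaks and 31.8% of the whole list. The share did not move steadily with width, and was 40.03% at 1000 to under 1500 bp, 34.3% at 1500 to under 2000 bp, 42.7% at 2000 to under 2500 bp, 43.2% at 2500 to under 3000 bp and 23 of 80 at 3000 to under 4000 bp. It was 36.4% with a threshold of 1500 bp and 31.9% with 3000 bp, so the contrast depends on the threshold. H3K4me3 passed acetylation at 1 end in 42.3% of broad and 48.5% of narrower acetylated peaks, and at neither end in 16.1% and 14.8%. An H3K4me3 overhang of at least 1000 bp at some end was present in 67 broad acetylated peaks, or 8.44% (6.70 to 10.6), against 0.243% (0.165 to 0.359) of narrower ones. A narrow peak has less room for such an overhang, so this contrast is partly set by the rule. Acetylation in turn ran at least 1000 bp past an H3K4me3 edge in 85 broad acetylated peaks, or 10.7% (8.74 to 13.0), against 4.19% (3.82 to 4.59) of narrower ones, a difference of 6.52 points (4.51 to 8.89). H3K4me3 width does not cap this length, but 1000 bp is a fixed length. Relative to H3K4me3 width, the acetylated span showed no excess. It was wider than the H3K4me3 peak in 33.4% (30.2 to 36.7) of broad and 36.6% (35.7 to 37.5) of narrower acetylated peaks. Its median was 92.6% of the H3K4me3 width for broad and 93.2% for narrower ones.

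Where H3K4me3 passed acetylation at both ends, the longer overhang had a median of 314 bp and the shorter one 92.0 bp. Where H3K4me3 passed acetylation at neither end, the widest H3K27ac peak on each had a median width of 3194 bp. The direction of transcription is unknown, so these sides are not upstream or downstream.

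**Figure D2:**
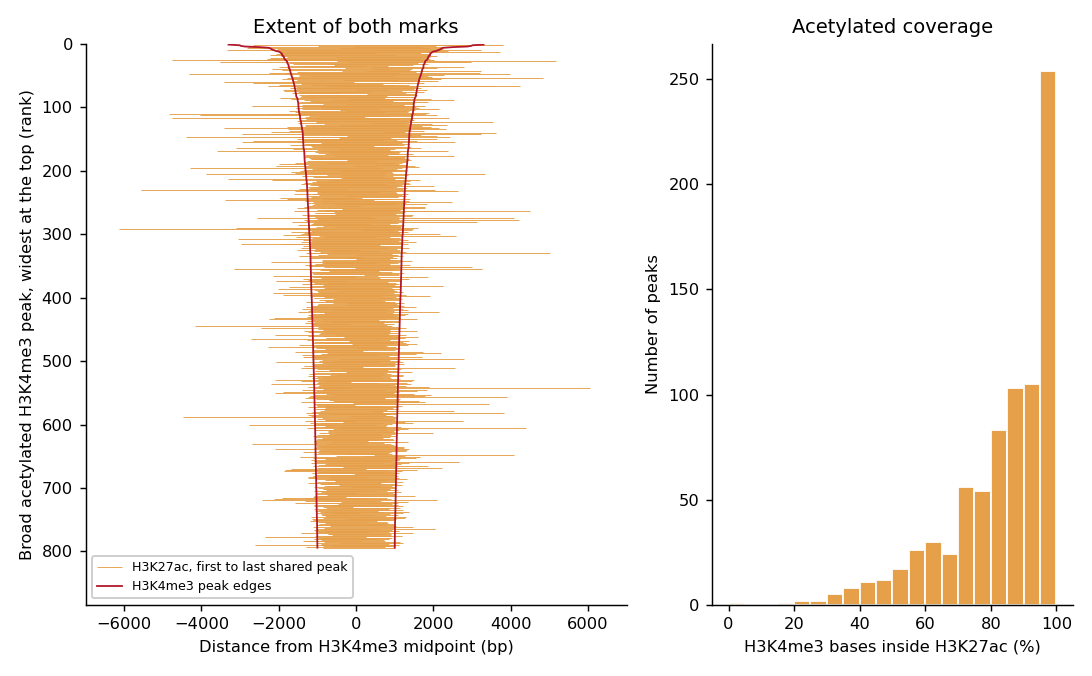
Left, the 794 broad acetylated peaks by rank of width, with H3K4me3 edges as red lines and the span from the first to the last overlapping H3K27ac peak as orange lines, in bp from the H3K4me3 midpoint. Right, the number of peaks by percentage of bases inside H3K27ac, in steps of 5 points; the median is 88.1%, and the tail below 50% holds 42 peaks.

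Broad peaks were rarely broken up on the acetylated side. A single H3K27ac peak overlapped 763 of the 794, while 31 (3.90%, 2.76 to 5.49) lay on 2 or more, against 0.769% (0.618 to 0.957) of narrower acetylated peaks and 0.854% of the whole list. Such split peaks were 14 of 548 (2.55%) at 2000 to under 2500 bp and 8 of 80 at 3000 to under 4000 bp. Longer peaks offer more room for several H3K27ac peaks. Per kb of H3K4me3, broad acetylated peaks had 0.424 H3K27ac peaks and narrower ones 0.854. As most peaks of both kinds lie on a single H3K27ac peak, these values mostly follow width and cannot compare splitting. The largest unacetylated gap inside a split peak had a median of 91.0 bp and ran from 25 to 1534 bp. Split peaks had a median H3K4me3 score of 1330, against 2003 for those on a single H3K27ac peak. Their median H3K27ac score was 301, against 998 for those on a single H3K27ac peak.

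Only 3 broad acetylated peaks lay on 3 H3K27ac peaks, and none lay on more. The widest of them measured 3839 bp at chromosome 15, 5256376 to 5260214, where acetylated peaks of 1658, 968 and 868 bp together covered 90.2%. The next, 3274 bp at chromosome 19, 2484574 to 2487847, was covered for 97.7% by peaks of 1441, 722 and 1862 bp. The narrowest, 2121 bp at chromosome 9, 10287467 to 10289587, was covered for 74.8% by peaks of 472, 566 and 549 bp. Gaps between these neighbours were at most 67.0 bp. In order of position, the acetylated peaks scored 98.6, 50.6 and 50.2 on chromosome 15 and 441, 50.1 and 198 on chromosome 19. On chromosome 9 they scored 57.2, 167 and 59.5. The median of the whole H3K27ac list was 195, so most of these peaks were weakly scored.

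The H3K27ac peaks on broad H3K4me3 peaks ranked high in their own list. The best-scoring H3K27ac peak on each broad acetylated peak had a median score of 969 (914 to 1044), against 504 (492 to 516) on narrower acetylated peaks. Of the 828 H3K27ac peaks that touched a broad peak, 61.2% were in the top quintile of H3K27ac score, against 38.7% of the 10261 on other H3K4me3 peaks. By width, 77.9% and 13.1% were in the top quintile. The width of the widest H3K27ac peak went with H3K4me3 width across the 794 (Spearman rho 0.40), so the contrast by width is partly set by the rule. Scores of both marks went together across the 794 broad acetylated peaks, with a Spearman rho of 0.67 as a description. Within quintile 5 of H3K4me3 score the median H3K27ac score was 1537 (1436 to 1654) for broad and 1156 (1125 to 1187) for narrower acetylated peaks. In quintile 2 it was 181 (140 to 244) for broad and 222 (211 to 233) for narrower ones, with overlapping intervals.

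The H3K27ac score did not keep increasing with width. From 2000 to under 2500 bp the median H3K27ac score was 1040, from 2500 to under 3000 bp 961, from 3000 to under 4000 bp 619, and from 4000 bp 244. Below the threshold it was 925 at 1500 to under 2000 bp and 563 at 1000 to under 1500 bp. Of these class medians the highest was that of 2000 to under 2500 bp. They carry no intervals, so neighbouring classes are not set apart, and the class from 4000 bp held only 11 peaks. Median coverage stayed between 88.1% and 89.0% in the 3 classes from 2000 to under 4000 bp.

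The 10 widest broad acetylated peaks illustrate the low-score end, as 9 of them scored below the list median. They divided by coverage, with 5 covered for less than 60% and the other 5 for over 90%. A 5960 bp peak at chromosome 5, 20008850 to 20014809, carried a single 3038 bp acetylated peak of score 924 that left 2003 bp free at one end and 919 bp at the other. At chromosome 3, 28200470 to 28205430, a 2326 bp acetylated peak of score 1121 sat within 208 bp of one end of a 4961 bp H3K4me3 peak and left 2427 bp free at the other. Another one-sided case, 4522 bp at chromosome 20, 6107866 to 6112387, was left free for 1836 bp at one end and 27.0 bp at the other. In contrast, the 4311 bp peak at chromosome 17, 24985259 to 24989569, lay wholly inside a 6559 bp acetylated peak that passed it by over 1000 bp on both sides. It was the only one of the 10 above the list median, with a score of 1802.

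Broad acetylated peaks had more acetylated sites without H3K4me3 around them than narrower acetylated peaks had. These H3K27ac-only peaks, 12938 in all, share no base with H3K4me3 and did not enter the choice of the 794 peaks. At least 1 lay within 50 kb of the midpoint of 683 broad acetylated peaks, or 86.0% (83.4 to 88.3), against 77.5% (76.6 to 78.2) of narrower acetylated peaks and 77.7% of the whole list. The difference was 8.57 points (5.86 to 11.0). Of the 40 broad peaks without H3K27ac, 35 had such a neighbour, or 87.5% (73.9 to 94.5). At least 5 lay there for 170 broad acetylated peaks, or 21.4% (18.7 to 24.4), against 10.9% (10.3 to 11.5) of narrower ones and 11.6% of the whole list. Broad peaks without H3K27ac had 5 or more in 11 of 40 cases and a mean of 3.23, so these numbers were not particular to acetylated broad peaks. The mean number was 2.87 (2.75 to 2.99) around broad and 2.05 around narrower acetylated peaks, a difference of 0.814 (0.694 to 0.937). With only the 50% of each list of highest score, the difference was 0.230 (0.135 to 0.330). Numbers varied more than the Poisson intervals allow, with SDs of 2.34 over broad and 1.87 over narrower acetylated peaks and variances of 1.91 and 1.71 times the mean. Neighbouring peaks also share some of these sites, so the intervals are too narrow.

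The excess was largest at 5 to 10 kb and faded with distance beyond that. Counted from the H3K4me3 edges, H3K27ac-only peaks had a density of 4.01 per 100 kb at 5 to 10 kb from broad acetylated peaks (3.58 to 4.47), against 2.18 (2.09 to 2.28) from narrower ones, a ratio of 1.83. The ratio was 1.52 at 10 to 20 kb, 1.33 at 20 to 50 kb, 1.17 at 50 to 100 kb and 1.06 at 200 to 500 kb. At 2 to 5 kb the ratio was 1.36, from densities of 1.76 (1.41 to 2.18) around broad and 1.29 (1.21 to 1.39) around narrower acetylated peaks. Nearer than 2 kb the densities were 0.756 (0.484 to 1.12) around broad and 0.993 (0.899 to 1.09) around narrower acetylated peaks, with overlapping intervals. Counting all H3K27ac peaks, with or without H3K4me3, the ratio at 5 to 10 kb was 1.22, from 6.41 per 100 kb (5.87 to 6.99) around broad and 5.27 (5.13 to 5.41) around narrower ones. That ratio was 0.978 at 2 to 5 kb, 1.16 at 10 to 20 kb and 1.11 at 20 to 50 kb. Whether a site counts as H3K27ac-only depends on the H3K4me3 peaks nearby, which were sparser around broad acetylated peaks up to 50 kb. How far this sets the H3K27ac-only excess was not tested.

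The contrast was smaller when peaks were compared within the same region. Within 439 bins of 1 Mb that held peaks of both kinds, the mean was 2.86 for broad and 2.21 for narrower acetylated peaks, a difference of 0.653. The broad mean was higher in 256 bins and lower in 170. On 23 of 24 chromosomes the broad mean was higher. In each quintile of H3K4me3 score broad acetylated peaks had the higher mean, and only in quintile 2 did the intervals overlap, at 2.48 (2.16 to 2.83) for broad and 2.20 (2.14 to 2.27) for narrower ones.

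The other H3K4me3 peaks showed the opposite. Another H3K4me3 peak lay within 5 kb of the edge of 126 broad acetylated peaks, or 15.9% (13.5 to 18.6), against 25.9% (25.1 to 26.8) of narrower acetylated peaks and 25.7% of the whole list, a difference of -10.1 points (-12.6 to -7.24). Within 1 kb the shares were 2.64% (1.74 to 4.01) and 8.003% (7.49 to 8.54). Broad peaks were chosen by width, so nearby H3K4me3 called as part of 1 wide peak is not counted as a neighbour. How far the rule sets this difference was not tested. With peaks up to 500 bp apart merged, the difference within 5 kb was -8.52 points (-10.7 to -6.09). With only the 50% of each list of highest score, it shrank to -2.21 points (-3.84 to -0.0842). The median distance to the next H3K4me3 peak was 14.8 kb (13.1 to 16.8) for broad and 10.9 kb (10.6 to 11.2) for narrower acetylated peaks. No other H3K4me3 peak lay within 50 kb of 125 broad acetylated peaks, or 15.7% (13.4 to 18.4), against 9.56% (9.01 to 10.1) of narrower ones. By density the ratio was 0.326 within 2 kb, 0.825 at 5 to 10 kb and 1.02 at 50 to 100 kb.

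Part of this went with score. Across quintiles of score the difference averaged -6.26 points, and in quintile 5 the shares were 10.7% (7.73 to 14.7) for broad and 13.1% (11.7 to 14.5) for narrower acetylated peaks. The 11 broad acetylated peaks of the lowest quintile went the other way: 8 of them, or 72.7% (43.4 to 90.3), had another H3K4me3 peak within 5 kb, against 32.3% (29.8 to 34.9) of narrower ones. Broad peaks without H3K27ac were also close to others, with 17 of 40 (42.5%, 28.5 to 57.8) within 5 kb.

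**Figure D3:**
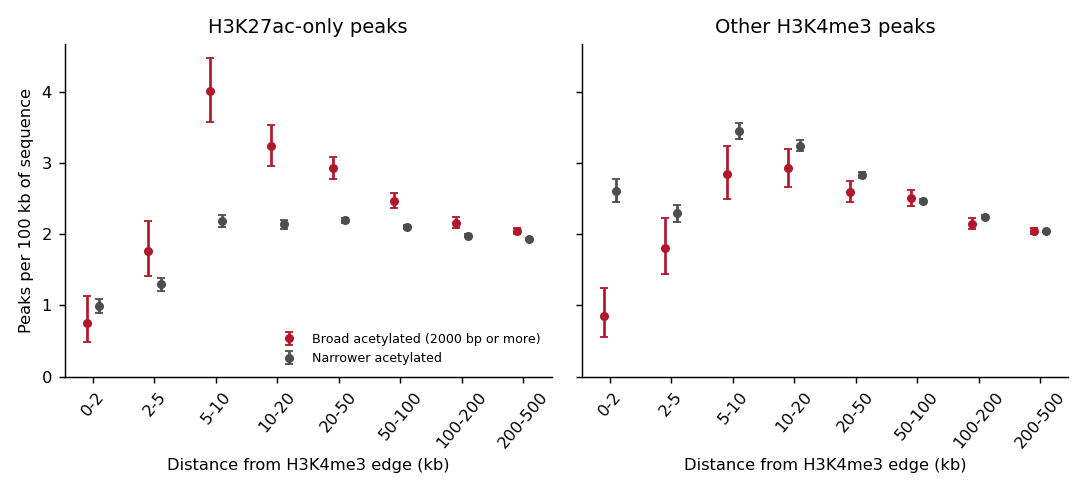
Peaks per 100 kb at increasing distance (kb) from the edges of 794 broad (red) and 10271 narrower (grey) acetylated H3K4me3 peaks, with exact Poisson 95% intervals. Left, H3K27ac-only peaks are denser around broad peaks from 2 kb outwards, by 1.83 times at 5 to 10 kb. Counting all H3K27ac peaks, not shown, the ratio at 5 to 10 kb is 1.22. Right, other H3K4me3 peaks are sparser around them within 2 kb, at a ratio of 0.326.

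The mean number of H3K27ac-only neighbours was higher in each wider class up to 4000 bp. Over the 794 single broad acetylated peaks, however, width and this number went together only weakly (Spearman rho 0.15). Acetylated H3K4me3 peaks under 1000 bp had a mean of 1.89 within 50 kb (1.85 to 1.94), those of 1500 to under 2000 bp 2.42 (2.35 to 2.49), those of 2000 to under 2500 bp 2.61 (2.48 to 2.75), those of 2500 to under 3000 bp 3.18 (2.91 to 3.47) and those of 3000 to under 4000 bp 4.09 (3.66 to 4.56). The Poisson intervals of the last 3 classes do not overlap. They are too narrow, however, as variances were 1.80, 1.74 and 2.18 times the mean, so the separation of these classes is not settled. Single peaks of all 3 ranged widely, from 0 to 12, 0 to 12 and 0 to 11 neighbours, with SDs of 2.16, 2.35 and 2.98. From 3000 to under 4000 bp, 38.8% (28.8 to 49.7) had 5 or more such neighbours, against 17.7% (14.7 to 21.1) from 2000 to under 2500 bp. The 11 peaks from 4000 bp had a mean of 2.36 (1.54 to 3.46), below the class before them. Closeness to another H3K4me3 peak showed no such steps above 2000 bp, with 83 of 548, 31 of 155 and 10 of 80 peaks within 5 kb in the 3 classes under 4000 bp, with overlapping intervals.

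**Figure D4:**
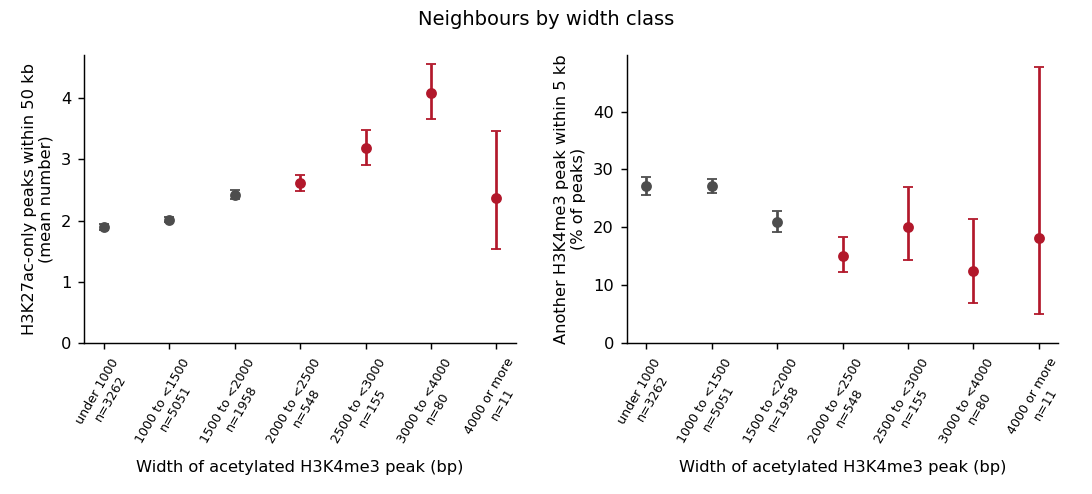
Acetylated H3K4me3 peaks by width class (bp), grey below and red from 2000 bp, with n under each class. Left, the mean number of H3K27ac-only peaks within 50 kb with exact Poisson 95% intervals, which reaches 4.09 at 3000 to under 4000 bp. Right, the percentage with another H3K4me3 peak within 5 kb with Wilson 95% intervals.

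The 10 broad acetylated peaks with most H3K27ac-only neighbours had 10 to 12 of them within 50 kb. Of these 10, 6 were 3000 bp or wider, as were 91 (11.5%) of all 794, and 9 scored above the list median. Ties at 10 neighbours were settled in favour of the wider peak. The set therefore leans to wide peaks by its choice, and the 6 cannot be weighed against the 11.5%. The highest count, 12, was shared by a 2727 bp peak at chromosome 23, 16753860 to 16756586, covered for 98.9%, and a 2141 bp peak at chromosome 8, 5546322 to 5548462, covered for 94.0%. The most secluded was a 3491 bp peak of score 3100 at chromosome 22, 10275523 to 10279013. It had 11 H3K27ac-only neighbours, while the next H3K4me3 peak of any width was 488 kb away. A similar setting was found at chromosome 6, 13565744 to 13569581, with 10 neighbours around a 3838 bp peak and 200 kb to the next H3K4me3 peak. Chromosome 15 held 2 more with 10 each, one of 3147 bp from 28685661 to 28688807 and one of 2828 bp from 27627929 to 27630756.

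Most broad acetylated peaks had no other within 100 kb. The median distance between the midpoint of one and the nearest other was 261 kb (231 to 301). Another lay within 100 kb of 220 of them, or 27.7% (24.7 to 30.9), and within 10 kb of 22. This share follows the number of peaks that meet the rule, and was 63.5% with a threshold of 1500 bp and 16.5% with 3000 bp. No comparison with a random spread was made, so these distances do not show peaks unusually far apart or close. Chaining midpoints up to 100 kb apart gave 574 single peaks and 100 groups, of which 82 held 2 peaks, 16 held 3 and 2 held 4.

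The 3 largest or most compact groups held wide peaks, mostly of low score and high acetylated coverage. At chromosome 5, 12400784 to 12449214, 4 peaks of 2991 to 4224 bp lay within 48.4 kb, scored 222 to 626, and were covered for 62.7% to 99.7%. No H3K27ac-only peak was called between the first and the last of them. At chromosome 7, 12874095 to 12976578, 4 peaks of 2468 to 3551 bp were covered for 94.3% to 100%, and 6 H3K27ac-only peaks lay among them. Their scores were 373, 621, 816 and 3100 in order of position. The most compact group of 3, at chromosome 19, 2462306 to 2487847, spanned 25.5 kb with peaks of 3693, 2298 and 3274 bp, all covered for over 95%. Other groups of 3 scored high, such as that at chromosome 7, 22231802 to 22291393, with scores of 2872 to 3132. Of the 18 groups of 3 or 4, 6 held no H3K27ac-only peak, among them that one and the one on chromosome 5.

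Broad acetylated peaks occurred on each of the 24 chromosomes. Their share of the H3K4me3 peaks of a chromosome ran from 2.73% on chromosome 2 (10 of 366, 1.49 to 4.96) to 8.51% on chromosome 5 (53 of 623, 6.56 to 11.0). Both are extremes picked out of 24 chromosomes, so the gap between them tests nothing. Chromosomes 3 and 19 followed chromosome 5, with 8.32% and 8.11%. Per Mb between its first and last peak, chromosome 8 had most broad acetylated peaks, 1.72, and chromosome 2 fewest, 0.374. Median widths ran from 2179 bp on chromosome 14 to 2454 bp on chromosome 18.

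**Figure D5:**
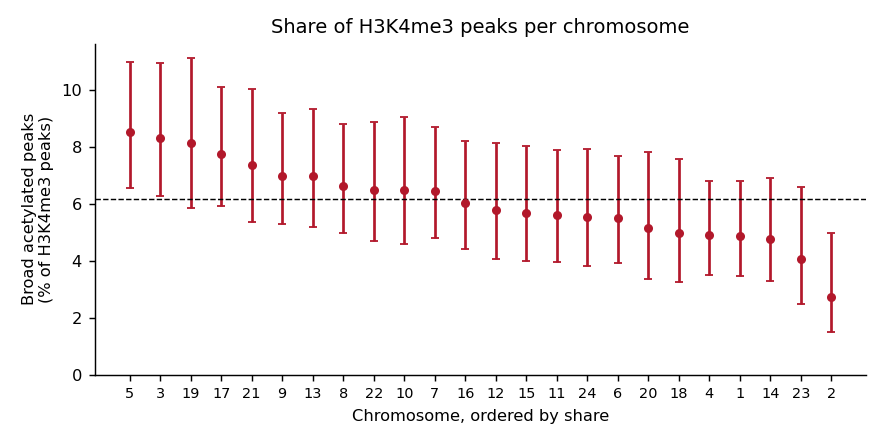
Broad acetylated peaks as a percentage of the H3K4me3 peaks of each chromosome, ordered by that share, with Wilson 95% intervals. The dashed line is the share over all chromosomes, 6.16%. Most intervals include the line; those of chromosomes 5 and 3 lie above it and that of chromosome 2, at 2.73%, below it.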

How the data were processed

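Whole-embryo chromatin was precipitated for H3K27ac or H3K4me3 and fragments of 200 to 300 bp were sequenced, per the labels' protocols. Per the submitters' processing notes, Bowtie was the aligner. Peak names contain MACS. No source used here gives its version and settings, any control, pooling or the genome build. The deposited lists hold position, name and a score per peak. The score is the authors' own, used only within its list.

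From the lists, overlaps of at least 1 bp, coverage, edges and distances were computed with Python 3.11.15, NumPy 2.4.6, pandas 2.3.3 and SciPy 1.17.1, tested on simulated data. bedtools 2.31.1 gave the same 794 peaks. Figures used matplotlib 3.10.9. Coordinates count from 1, in the lists' own build. The gene table at hand, of assembly ASM223467v1, ends before the last peak on 8 of 24 chromosomes, so it was not used. A second H3K27ac sample was not analysed here.

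The peaks, measures and alternatives were chosen with earlier results of these data known. Regions are named as the 10 widest, the 10 with most H3K27ac-only neighbours, the 5 least covered, those on most H3K27ac peaks, those nearest the threshold and the 3 largest groups. Ties in the number of neighbours went to the wider peak. The chromosome 7 group at 22231802 was chosen after its values were seen.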

Additional observations from a re-analysis of the deposited data

How the results depend on the processing

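Of 100 recomputed values, 50 stayed within the counting interval of the reported value and 50 left it, 2 of these with a change of sign (coverage difference within score quintiles, split acetylation per kb). The coverage difference of -2.33 within 1 Mb bins, also of changed sign, is not among the 100. Other windows and width thresholds change the quantity that is counted, so many values had to move. The tally therefore does not measure how robust the results are. With a threshold of 1500 bp, 21.4% of H3K4me3 peaks qualified, 36.4% passed acetylation at both ends, 2.29% were split, 83.2% had an H3K27ac-only peak within 50 kb (mean 2.55, 0.585 above narrower peaks), 19.5% another H3K4me3 peak within 5 kb and 63.5% another broad acetylated peak within 100 kb. With 3000 bp these were 0.706%, 31.9%, 11.0%, an unmoved share with a mean of 3.88 (1.78 above narrower peaks), 13.2% and 16.5%, and median scores were 1668 for H3K4me3 and 564 for H3K27ac. The 50% of each list with the highest score gave 9.58% qualifying, 1.62% split, median scores of 2302 and 1182, 71.2% with an H3K27ac-only peak (mean 1.36, 0.230 above), 5.02% with another H3K4me3 peak within 5 kb (-2.21 points against narrower peaks) and 22.5% with another broad acetylated peak. Merging peaks up to 500 bp apart gave 7.82% qualifying, 45.7% past both ends, 1.32% split, median scores of 1840 and 898, 83.2% with an H3K27ac-only peak (mean 2.55, 0.627 above) and 31.7% with another broad acetylated peak. Without peaks at 3100, 5.18% qualified and the median H3K27ac score was 838. Requiring 50% coverage moved none of these values beyond its interval.

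H3K27ac-only peaks were found for 60.5% within 20 kb (0.389 above narrower peaks in mean) and 95.8% within 100 kb (1.18 above). The difference in mean was 0.653 within 1 Mb bins. Across score quintiles the coverage difference was -0.69 points, against 0.83 as reported, and that of H3K4me3 within 5 kb -6.26 points. Another H3K4me3 peak lay within 2 kb for 4.53% and within 10 kb for 37.3%, and another broad acetylated peak within 50 kb for 15.2% and within 200 kb for 42.8%. Split acetylation was 3.14 points more frequent in broad peaks, but per kb of H3K4me3 the difference in H3K27ac peaks was -0.43, as the count is divided by a larger width. That change of sign is mostly set by the width rule. The higher mean of H3K27ac-only peaks and the lower share with another H3K4me3 peak kept their sign under every alternative run for them. The alternatives with broad acetylated peaks that had no other within 100 kb, and those within bins or quintiles for H3K4me3 neighbours and width classes, were chosen after seeing the data. Causes were not tested. No paired analysis was possible because the marks have a single list each. Depth is unknown.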
